A study of Mus musculus with 12 samples.

Results

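TRIM proteins are a large family of E3 ubiquitin ligases and related adaptors. Most carry a RING domain that recruits the ubiquitin-loaded E2 enzyme, then B-box zinc fingers and a coiled coil through which the proteins dimerize, and a variable end such as a PRYSPRY or NHL domain that binds the substrate. In macrophages the family is best known for its part in innate immunity: some members bind incoming viruses, others ubiquitinate RNA sensors or signalling adaptors, and several are themselves induced by type I interferon. Members were taken as every gene whose symbol is Trim, a number and at most 1 letter, which gave 50 of the 18719 genes listed for either state, 44 of them listed in both. A further 18 protein-coding TRIM symbols of the mouse annotation were not listed in either table, Trim6, Trim12a and Trim71 among them.

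The libraries came from J774A.1, a mouse macrophage line in which Acat1, the gene of a mitochondrial enzyme of fatty acid oxidation and ketone body metabolism, had been disrupted with Cas9 and a guide to the fourth exon of that gene. WT cells had received the same Cas9 and GFP vector with no guide, and both genotypes were sorted, seeded at a few cells per well and grown as clonal populations. RNA was sequenced from 3 WT and 3 ACAT1 KO samples without stimulation and from 3 of each after 2 hours with 100 ng/mL LPS, the bacterial ligand of TLR4, making 12 libraries in 4 groups. The unstimulated samples are described as 3 different lines per genotype, while the labels do not say which line a library came from or whether the LPS libraries are of the same lines, so p-values measure the spread between these samples.

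Counts summed to between 56948593 and 167280149 per library. Acat1 was measured at 80.8 to 108 CPM (the count scaled by the library's total and its TMM factor over the 12 libraries) in WT and 25.5 to 28.9 CPM in ACAT1 KO cells without stimulation, and at 65.0 to 95.4 and 18.5 to 19.9 CPM after LPS. All 10 macrophage markers examined, Csf1r, Lyz2 and Spi1 among them, were listed, with a summed level of 8850 to 11900 CPM, against 8.01 to 11.9 CPM for 16 markers of other cell types, of which 5 were listed without stimulation and 7 after LPS. In 3 unstimulated libraries, WT 1, WT 2 and KO 2, genes lying inside exons of the other strand took 0.0201% to 0.0308% of the counts, against at most 0.0083% in the other 9, and unstimulated results are also given within these sets or without them. The set of 3 has KO 2 as its only KO library, and the other unstimulated libraries have WT 3 as their only WT library. TRIM members together made up 1724 to 1831 CPM in unstimulated WT, 1718 to 1773 CPM in unstimulated ACAT1 KO, 2909 to 3207 CPM in LPS-treated WT and 2930 to 3184 CPM in LPS-treated ACAT1 KO libraries. The summed level was higher after LPS in both genotypes, with no overlap of the ranges. The sum is weighted by abundant members: Trim25 alone averaged 157 CPM in unstimulated and 903 CPM in LPS-treated WT libraries. In ACAT1 KO libraries it averaged 111 and 918 CPM.

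Levels were compared between genes as RPKM, the CPM divided by the exon length in kilobases. Trim28, the corepressor also called KAP1 that silences retroelements with KRAB zinc finger proteins, stood first without stimulation, at 88.3 ± 3.71 RPKM in WT and 84.4 ± 3.29 RPKM in ACAT1 KO cells (mean ± SD, n = 3). Trim8, a RING ligase tied to NF-kB and SOCS1 signalling, followed at 38.3 ± 4.41 and 43.8 ± 1.31 RPKM, and Trim35 at 33.4 ± 1.46 and 34.5 ± 2.74 RPKM. The ranges of Trim8 and Trim35 overlapped in WT and did not in ACAT1 KO cells. Next in unstimulated WT came Trim25 at 27.3 ± 1.82 and Trim30a at 26.2 ± 1.35 RPKM, whose ranges overlapped.
LPS changed that order. Trim25, the ligase that attaches ubiquitin to the RNA sensor RIG-I, moved to first place at 157 ± 6.80 RPKM in WT and 159.5 ± 5.46 RPKM in ACAT1 KO cells, above Trim28 at 93.7 ± 2.01 and 85.5 ± 1.78 RPKM. Trim30a took the third place at 71.2 ± 13.2 and 78.0 ± 7.37 RPKM, where its range overlapped that of Trim28 in ACAT1 KO but not in WT cells, and Trim21 the fourth at 39.9 ± 4.81 and 42.0 ± 2.93 RPKM. At the other end, 5 of 45 listed members in unstimulated WT and 9 of 49 in LPS-treated WT cells averaged under 1 CPM.

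The question of the LPS comparison is which members respond within 2 hours and whether the response depends on ACAT1. Of 44 members tested in the fit of all 12 libraries, 20 rose and 10 fell in WT, 68.2% of the members against 57.4% of all 16535 genes tested, of which 29.3% rose and 28% fell (edgeR's quasi-likelihood test, Benjamini-Hochberg adjusted p under 0.05). In ACAT1 KO cells 21 rose and 14 fell, 79.5% of the members against 60.7% of all genes, of which 29.5% rose and 31.2% fell. With no adjustment of p, 20 members rose and 12 fell in WT at p under 0.05 (31.1% and 30.5% of all genes), and 21 and 14 in ACAT1 KO cells (31.3% and 33.4%). The 3 LPS libraries lay above the 3 unstimulated ones for 20 members in WT and 20 in ACAT1 KO cells (31.4% and 33.2% of all genes) and below them for 11 and 15 (29.6% and 34.6%). The same 20 members rose in both genotypes and the same 10 fell in both, 5 more passed the threshold in ACAT1 KO cells only and none in WT only. Trim28 was among the 9 that passed in neither genotype. The median log2 fold change of the members was 0.10 in WT and 0.05 in ACAT1 KO cells, against -0.02 and -0.03 over all genes tested. Leaving out the 3 libraries of higher other-strand share leaves 1 unstimulated WT library. The log2 fold changes in WT were then -0.43 for Trim2, -0.57 for Trim7, 0.31 for Trim11 and -0.18 for Trim35, and 0.255 for Trim11 in ACAT1 KO cells.

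A group that rose nearly as a whole was the cluster on chromosome 7, which holds the mouse relatives of the retroviral restriction factor TRIM5alpha: Trim34a, Trim5, Trim34b, Trim12c and Trim30a to Trim30d, between 104244457 and 104507849 of GRCm38. Of its 8 members tested, 7 rose in WT and 8 in ACAT1 KO cells (29.3% and 29.5% of all genes), with a median log2 fold change of 2.36 and 2.89. All 8 were higher after LPS with no overlap between the WT groups, and 7 of 8 with none between the ACAT1 KO groups (31.4% and 33.2% of all genes). Trim30a, which dampens TLR signalling through TAB2 and TAB3, was at 102, 113 and 108 CPM in the 3 unstimulated WT libraries and at 230.5, 321 and 327 CPM after LPS (log2 fold change 1.44, SE 0.136, adjusted p = 2.43e-06, edgeR). ACAT1 KO cells held 73.0, 78.9 and 60.5 CPM and, after LPS, 318, 352 and 292 CPM (log2 fold change 2.18, SE 0.139, adjusted p = 7.96e-08, edgeR). Every LPS library thus lay above every unstimulated one in both genotypes, and the 3 KO values without stimulation were the lowest of all.

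Its neighbors Trim30b, Trim30c and Trim30d were far less abundant and had larger log2 fold changes. Trim30c went from 1.88, 2.73 and 3.11 to 10.4, 17.7 and 25.1 CPM in WT and from 1.84, 1.89 and 1.57 to 21.9, 23.4 and 16.1 CPM in ACAT1 KO cells, log2 fold changes of 2.78 (SE 0.295) and 3.53 (SE 0.304). The WT libraries after LPS spread more than the others of this gene, with WT 1 lowest, as it also was for the other 3 Trim30 genes. Trim30b averaged 2.62 ± 0.457 CPM in unstimulated WT (mean ± SD, n = 3) and rose by 2.40 in WT and 2.75 in ACAT1 KO cells on the log2 scale, and Trim30d, from 1.98 ± 0.576 CPM, by 2.31 and 3.02. Among 100-base stretches of their annotated transcripts, 4.41% of Trim30a recur in Trim30d, and none of Trim30b or Trim30c recur in another gene.

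Trim34a and Trim34b were measured at similar levels, 3.31 ± 0.186 and 4.17 ± 1.12 CPM in unstimulated WT and 19.9 ± 2.68 and 25.1 ± 2.61 CPM after LPS (mean ± SD, n = 3). Both had a log2 fold change of 2.58 in WT (SE 0.135 and 0.171), and of 3.21 and 3.29 in ACAT1 KO cells. Their values are not independent of each other, since 21% of Trim34a and 30.5% of Trim34b recur in the other gene at 100 bases, and 23.5% of the Trim34a exons lie opposite exons of the other strand, which the counting may or may not have separated. Trim12c rose from 27.3, 31.5 and 33.1 to 67.2, 81.5 and 78.9 CPM in WT (log2 fold change 1.31, SE 0.0904, adjusted p = 1.75e-07, edgeR) and by 1.54 on the log2 scale in ACAT1 KO cells. Trim5 was close to the limit of detection, with 11 to 47 counts per library. It was the member of the cluster that did not pass in WT (log2 fold change 0.61, adjusted p = 0.247, edgeR), and its call in ACAT1 KO cells (log2 fold change 1.14, adjusted p = 0.031, edgeR) was lost in 4 of 12 fits that left out a library. Of the Trim5 transcript, 11.7% recurs elsewhere at 100 bases, mostly in Trim12c.

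**Figure D1:**
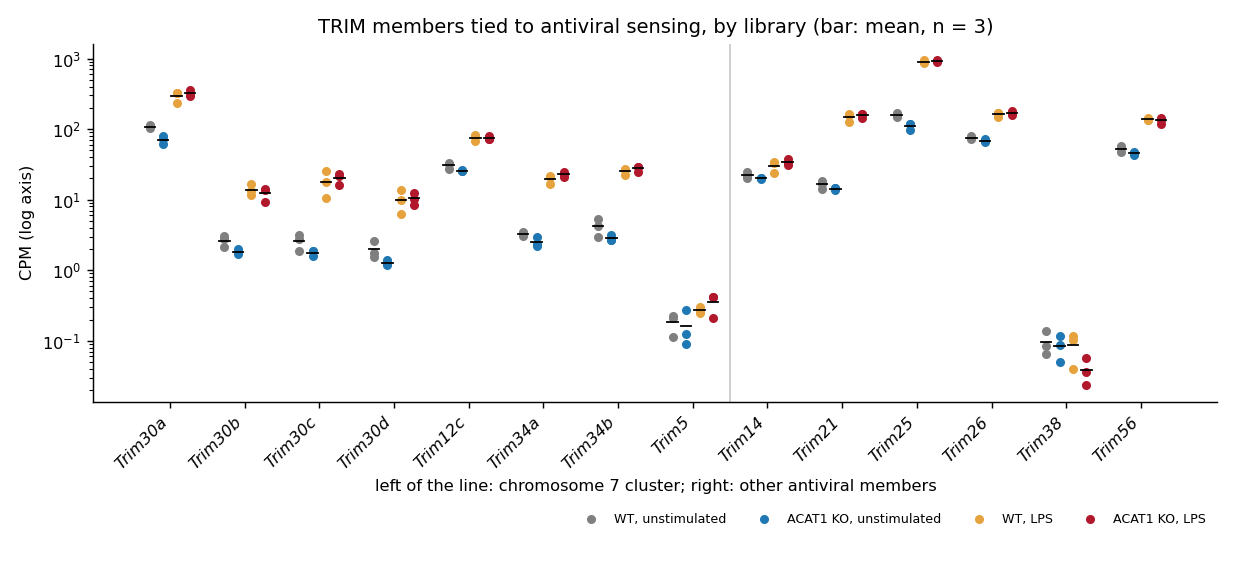
Level of each member of the chromosome 7 cluster (left of the line) and of 6 other members tied to antiviral sensing (right), in CPM on a log axis, with 1 point per library, colors for the 4 groups and a bar at the mean of 3 libraries. Within each genotype the LPS libraries lie above the unstimulated ones, except for Trim38 in both genotypes, Trim5 in ACAT1 KO cells and Trim14 in WT, where they overlap. Trim65, grouped with the signalling members, is not shown and fell with LPS.

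Promoter windows of RefSeq on GRCm38.p6, 250 bases before to 50 bases from each annotated start, were matched by symbol for 36 of the 50 members, 49 windows in all. They were searched on both strands for the interferon-stimulated response element, written here as GAAANNGAAA, for the STAT dimer site TTCNNNGAA and for the NF-kB consensus. The interferon-stimulated response element was found in 9 of the 49 windows (18.4%), belonging to 8 members, and in 3.44% of all 32851 windows of this length. The STAT site was in 8.16% of member windows and 8.3% of all windows, and the NF-kB consensus in 10.2% and 8.46%. Of the 15 members that rose in both genotypes and have a window, 6 held the interferon-stimulated response element (Trim12c, Trim21, Trim26, Trim30a, Trim30d and Trim34a), as did Trim2 among the 6 that fell in both, and Trim5. A member was counted here if any of its windows held the match, and no such share per gene was computed over all genes. A match of letters is not evidence of binding. Shown are windows with the match for the 6 members that rose in both genotypes, and for Trim5 as a cluster member. The window of Trim2, which also holds the match and fell in both genotypes, is not shown. Sequences run 5′ to 3′ on the strand of the gene, with the matched bases in capitals (TTTCNNTTTC where the match is on the other strand).
Trim30a: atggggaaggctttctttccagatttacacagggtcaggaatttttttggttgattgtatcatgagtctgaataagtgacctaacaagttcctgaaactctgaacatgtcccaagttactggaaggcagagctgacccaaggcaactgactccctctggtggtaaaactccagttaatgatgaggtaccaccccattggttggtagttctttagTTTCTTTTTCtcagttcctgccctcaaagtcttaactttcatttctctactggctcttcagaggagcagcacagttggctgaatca
Trim30d: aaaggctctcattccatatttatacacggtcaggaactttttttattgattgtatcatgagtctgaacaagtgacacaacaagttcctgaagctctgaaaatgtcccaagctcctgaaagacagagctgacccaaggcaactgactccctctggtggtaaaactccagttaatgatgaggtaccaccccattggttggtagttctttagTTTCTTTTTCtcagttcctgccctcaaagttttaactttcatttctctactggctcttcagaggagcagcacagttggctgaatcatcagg
Trim12c: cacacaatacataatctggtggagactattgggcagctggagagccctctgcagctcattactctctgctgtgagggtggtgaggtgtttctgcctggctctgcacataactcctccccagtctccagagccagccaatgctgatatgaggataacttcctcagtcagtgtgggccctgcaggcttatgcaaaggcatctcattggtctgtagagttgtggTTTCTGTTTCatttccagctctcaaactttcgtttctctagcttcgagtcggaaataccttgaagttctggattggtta
Trim5: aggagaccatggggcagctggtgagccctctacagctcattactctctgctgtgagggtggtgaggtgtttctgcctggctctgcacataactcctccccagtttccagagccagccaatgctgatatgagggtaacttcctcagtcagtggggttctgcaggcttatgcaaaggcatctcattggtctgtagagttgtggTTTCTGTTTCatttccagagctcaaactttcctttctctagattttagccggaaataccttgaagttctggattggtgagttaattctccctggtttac
Trim34a: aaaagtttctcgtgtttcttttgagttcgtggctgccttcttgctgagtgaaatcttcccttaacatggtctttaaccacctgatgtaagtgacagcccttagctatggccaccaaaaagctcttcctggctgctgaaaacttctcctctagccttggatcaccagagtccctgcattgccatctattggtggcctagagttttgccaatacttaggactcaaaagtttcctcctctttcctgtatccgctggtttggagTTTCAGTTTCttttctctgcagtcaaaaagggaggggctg
Trim21: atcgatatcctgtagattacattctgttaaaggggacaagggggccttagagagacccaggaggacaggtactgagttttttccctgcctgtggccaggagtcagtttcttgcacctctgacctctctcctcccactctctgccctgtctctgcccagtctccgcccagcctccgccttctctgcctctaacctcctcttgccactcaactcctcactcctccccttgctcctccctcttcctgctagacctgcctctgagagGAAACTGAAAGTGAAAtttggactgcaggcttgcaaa
Trim26: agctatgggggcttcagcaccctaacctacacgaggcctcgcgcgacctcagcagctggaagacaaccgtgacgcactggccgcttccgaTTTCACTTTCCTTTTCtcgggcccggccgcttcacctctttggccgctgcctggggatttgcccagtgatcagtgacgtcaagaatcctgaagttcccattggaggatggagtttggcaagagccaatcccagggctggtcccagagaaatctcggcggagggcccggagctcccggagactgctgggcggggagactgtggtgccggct

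These windows are chr7:104465144-104465443 for Trim30a, chr7:104507800-104508099 for Trim30d, chr7:104353300-104353599 for Trim12c and chr7:104288057-104288356 for Trim5, all on the minus strand. Those of Trim34a (chr7:104244207-104244506) and Trim26 (chr17:36836896-36837195) are on the plus strand and that of Trim21 (chr7:102565433-102565732) on the minus strand. The Trim30a and Trim30d windows share an identical run of 118 bases and those of Trim12c and Trim5 one of 71 bases, against 8 to 10 bases for every other pair shown, so the matches within each of these pairs are not separate observations. In Trim21 and Trim26 there were 2 overlapping matches, and those of Trim26 were on the strand opposite the gene. Trim30a has a second window, which also held 1 match. Trim25, Trim30b, Trim30c, Trim34b and Trim56 have windows without these letters, and Trim14, Trim16 and Trim36 have no window in the table.

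Outside the cluster, 6 members tied to antiviral sensing were examined. Of these, 5 rose in each genotype, where 29.3% (WT) and 29.5% (ACAT1 KO) of all genes tested rose. The median log2 fold change of the 6 was 1.26 in WT and 1.42 in ACAT1 KO cells. Trim65, a ligase for the RNA sensor MDA5, was grouped with the signalling members and fell in both genotypes (log2 fold change -1.27 and -1.11). Trim21, the cytosolic antibody receptor that sends antibody-coated virus to the proteasome, rose the most of all members in WT, from 14.3, 16.8 and 18.3 CPM to 128, 161 and 156 CPM (log2 fold change 3.17, SE 0.111, adjusted p = 9.81e-10, edgeR). In ACAT1 KO cells it went from 14.4, 14.8 and 13.8 to 163, 162 and 144 CPM (log2 fold change 3.44, SE 0.112, adjusted p = 4.46e-10, edgeR). The unstimulated WT and KO values overlapped, as did the values after LPS, and every LPS library lay far above every unstimulated one. Trim25 rose from 157, 167 and 146 to 868, 895 and 945 CPM in WT (log2 fold change 2.52, SE 0.0843, adjusted p = 7.14e-10, edgeR). The starting values in ACAT1 KO cells were lower, 117, 118 and 98.2 CPM, and the values after LPS were within the WT range, 934, 938 and 882 CPM (log2 fold change 3.05, SE 0.0861, adjusted p = 1.92e-10, edgeR).

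Trim56, an RNA-binding ligase with antiviral activity, rose by 1.40 in WT and 1.54 in ACAT1 KO cells on the log2 scale, and Trim26, which can target IRF3 for degradation, by 1.12 and 1.30. Trim14, an adaptor at the mitochondrial MAVS complex, rose less, by 0.44 (SE 0.122, adjusted p = 0.00874, edgeR) in WT, a call that was lost under upper-quartile scaling, and by 0.75 in ACAT1 KO cells. Of the Trim14 exons, 38% lie opposite exons of the other strand. Trim38 was counted only 2 to 14 times per library, and its log2 fold changes of -0.17 in WT and -1.06 in ACAT1 KO cells did not pass the test.

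Among members with other roles, Trim13, a ligase anchored in the endoplasmic reticulum, rose from 4.38, 3.40 and 3.87 to 32.9, 28.5 and 24.4 CPM in WT (log2 fold change 2.88, SE 0.132, adjusted p = 6.84e-09, edgeR) and from 4.97, 4.13 and 4.71 to 30.5, 26.1 and 28.5 CPM in ACAT1 KO cells (log2 fold change 2.62, SE 0.129). The WT and KO values overlapped in each state, and the states did not overlap. Trim36, a microtubule-associated ligase, rose from 1.40, 1.66 and 1.03 to 5.14, 8.51 and 5.63 CPM in WT and from 0.948, 0.946 and 0.801 to 9.52, 11.5 and 8.30 CPM in ACAT1 KO cells, log2 fold changes of 2.24 (SE 0.228) and 3.44 (SE 0.238). Trim16, which lacks a RING domain and takes part in the response to damaged endomembranes, rose by 2.34 in WT and 1.10 in ACAT1 KO cells. Smaller rises were measured for Trim32 (0.66 and 0.76), Trim23 (0.56 and 0.50), Trim11 (0.51 and 0.27), Trim39 (0.45 and 0.26) and Trim33 (0.43 and 0.21), on the log2 scale in WT and then in ACAT1 KO cells. In ACAT1 KO cells the calls of Trim11, Trim33 and Trim39 were lost under upper-quartile scaling, which moved the median of all genes to -0.23 in WT and -0.18 in ACAT1 KO cells.

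Among the 10 members that fell in both genotypes, Trim8 and Trim46 had the lowest log2 fold changes. Trim8 went from 155, 147 and 124 to 43.7, 59.8 and 50.9 CPM in WT (log2 fold change -1.47, SE 0.113, adjusted p = 4.34e-07, edgeR) and from 161, 168 and 158 to 43.3, 47.4 and 41.0 CPM in ACAT1 KO cells (log2 fold change -1.89, SE 0.115, adjusted p = 5.2e-08, edgeR). The states did not overlap in either genotype. Trim46, which bundles microtubules in axons, fell from 11.3 ± 1.29 to 4.21 ± 0.485 CPM in WT (mean ± SD, n = 3), with log2 fold changes of -1.43 in WT and -1.91 in ACAT1 KO cells. Trim65, a ligase for the RNA sensor MDA5, had log2 fold changes of -1.27 and -1.11, and Trim68 of -1.03 and -1.26. The NHL members Trim3 (-0.89 and -0.84) and Trim2 (-0.50 and -0.61), the chromatin reader Trim24 (-0.57 and -0.88), Trim7 (-0.56 and -0.88), the centrosomal ligase Trim37 (-0.40 and -0.48) and Trim35 (-0.18 and -0.44) fell less. Trim47 (log2 fold change -0.98), Trim59 (-0.58), Trim62 (-0.49) and Trim27 (-0.31) passed the test as lower in ACAT1 KO cells only, where WT gave 0.11, -0.42, -0.14 and -0.09. With the line, which was inferred from the replicate number and is not in the labels, as a block, Trim59 also passed in WT (log2 fold change -0.41, adjusted p = 0.00173, edgeR), as did the rare Trim50 (adjusted p = 0.0454, edgeR).

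**Figure D2:**
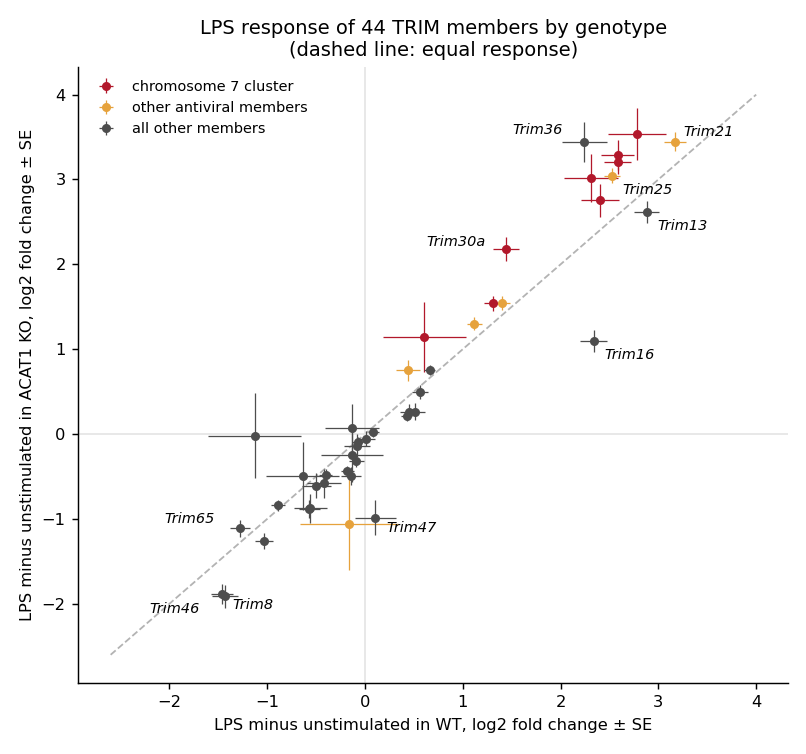
LPS response of the 44 members tested, as the log2 fold change ± SE in WT (horizontal axis) and in ACAT1 KO cells (vertical axis), with the chromosome 7 cluster in red, other antiviral members in orange and all others in gray. Points on the dashed line respond equally, Trim16 lies well below it at 2.34 against 1.10, and all 8 members of the cluster lie above it.

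Whether genotype changed the LPS response was tested as the interaction over all 12 libraries, which uses the same samples as the comparisons above. A single member passed, Trim16, with a smaller response in ACAT1 KO cells, where 31 of 16535 genes passed (0.187%; 0.0484% higher and 0.139% lower). It was at 7.45, 6.59 and 6.22 CPM in unstimulated WT and 7.13, 5.86 and 4.57 CPM in unstimulated ACAT1 KO libraries, and after LPS at 35.4, 34.1 and 32.8 CPM in WT and 12.8, 13.0 and 11.8 CPM in ACAT1 KO libraries. The unstimulated groups overlapped, whereas every LPS-treated KO library lay far below the lowest WT one. The response of Trim16 was smaller in ACAT1 KO cells by 1.24 on the log2 scale (interaction -1.24, SE 0.186, adjusted p = 0.0367, edgeR). That call was lost in 8 of the 12 fits that left out a library, with values from -1.39 to -1.07. Without the 3 libraries of higher other-strand share, which leaves 1 unstimulated WT library, the interaction of Trim16 was -1.32. Of the Trim16 transcript, 3.01% recurs in its neighbor Fbxw10 at 100 bases.

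Same-numbered unstimulated and LPS libraries deviated from their group means together, and a second fit of the interaction took the genotype and replicate number as a block (the line block). The labels tie no library to a line, so this pairing was inferred from these same data. The edgeR calls of the 5 further members below depend on it. Trim16 then had an interaction of -1.23 (SE 0.133, adjusted p = 0.00701), and 5 further members passed, all with a larger response in ACAT1 KO cells, so that 5 of 44 members were higher and 1 lower where 288 of all genes passed (1.74%; 0.835% higher and 0.907% lower). They were Trim30a, 0.76 (SE 0.113, adjusted p = 0.0192), Trim36, 1.20 (SE 0.182, adjusted p = 0.0201), Trim25, 0.53 (SE 0.0938, adjusted p = 0.0359), Trim34a, 0.63 (SE 0.116, adjusted p = 0.0388), and Trim30c, 0.77 (SE 0.151, adjusted p = 0.0478). Without the block their adjusted p-values were 0.164, 0.168, 0.0989, 0.237 and 0.643 (edgeR). With DESeq2, also without the block, they were 0.0093, 0.012, 0.00079, 0.0485 and 0.459. DESeq2 also called more of all genes than edgeR did. The interaction of all 8 members of the chromosome 7 cluster was positive in either fit, with a median of 0.66 without and 0.65 with the block. Of the 8, 3 were higher at an unadjusted p under 0.05 without the block. Several of these neighboring genes share sequence, so they are not 8 separate observations. The interaction sets their genotype difference after LPS (median 0.16) against that without stimulation (median -0.52), from the same libraries. Over all members that level was passed by 5 with a positive and 7 with a negative interaction, against 3.28% and 5.64% of all genes. Of the 11 members grouped for roles in signalling, 10 had a negative interaction, 4 of them at an unadjusted p under 0.05, with Trim47 at -1.09 the lowest. Of all 16535 genes tested without the block, 6838 had a positive and 9697 a negative interaction, with a median of -0.04.

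Without stimulation, the comparison of ACAT1 KO with WT cells called 2 of 42 members, 1 higher and 1 lower, where 1.91% of 16440 genes were called, 0.742% higher and 1.17% lower. The KO libraries lay above all WT libraries for 2 members and below them for 10 (12.3% and 13.2% of all genes). Trim30a was lower, at 73.0, 78.9 and 60.5 CPM against 102, 113 and 108 CPM in WT (log2 fold change -0.60, SE 0.105, adjusted p = 0.0464, edgeR). All KO values lay under all WT values, and the difference was -0.45 among the libraries with the higher other-strand share and -0.70 among the others (log2). These 2 differences rest on a single KO library (KO 2) and a single WT library (WT 3), respectively. The adjusted p rose above the threshold in each of the 6 fits that left out a library, with log2 fold changes from -0.68 to -0.50. Without the 3 libraries of higher other-strand share, which leaves 1 WT library, the log2 fold change of Trim30a was -0.70. Trim44, which has a zinc finger of deubiquitinases in place of the RING, was higher, at 151, 162 and 154 CPM against 115, 117 and 118 CPM (log2 fold change 0.42, SE 0.0563, adjusted p = 0.033, edgeR). Here too the groups did not overlap, the within-set differences, each with 1 library on 1 side, were 0.48 and 0.37. The call held in 1 of 6 fits that left out a library, with values from 0.40 to 0.43. Without the 3 libraries, which leaves 1 WT library, the log2 fold change of Trim44 was 0.37.

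Before adjustment, 11 members were lower and 1 higher at p under 0.05, against 9.93% and 9.73% of all genes. All 8 members of the chromosome 7 cluster had a negative log2 fold change (median -0.52, all genes 0.00), 6 of them at an unadjusted p under 0.05 and 1 past the adjusted threshold. In 7 of the 8 the difference was negative both among the libraries with the higher other-strand share and among the others, Trim5 being the exception. The first difference rests on a single KO library (KO 2) and the second on a single WT library (WT 3). Trim30b (-0.51, SE 0.187), Trim30c (-0.53, SE 0.223), Trim30d (-0.62, SE 0.239), Trim34b (-0.54, SE 0.223) and Trim34a (-0.41, SE 0.172) had values near that of Trim30a, with adjusted p-values above 0.05. Trim12c gave -0.24 and Trim5 -0.17. The 5 antiviral members tested elsewhere were also all negative, with Trim25 at -0.49 (SE 0.0925, adjusted p = 0.0543, edgeR), Trim56 at -0.19, Trim21 at -0.19, Trim14 at -0.14 and Trim26 at -0.12. Every Trim25 value in ACAT1 KO cells was under every WT value, and Trim25 passed the adjusted threshold with DESeq2, with a term for the other-strand share and in the fit of 12 libraries. Trim25 missed the threshold in each of the 6 fits that left out a library. Without the 3 libraries of higher other-strand share, which leaves 1 WT library, its log2 fold change was -0.45. In bulk RNA, fewer cells of a kind and less RNA per cell cannot be told apart. The 25 genes tested within 2 Mb of Trim30a that are not members had a median difference of 0.06, and the 38 around Trim25 one of -0.01 (log2). The 10 macrophage markers summed to 9250 to 10300 CPM in unstimulated WT and 10500 to 11900 CPM in unstimulated ACAT1 KO libraries, and the part of that difference in these results was not tested.

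After LPS, the same genotype comparison called 7 of 42 members, 1 higher and 6 lower, where 15.1% of 16483 genes were called, 5.93% higher and 9.12% lower. Before adjustment, p under 0.05 was reached by 2 higher and 9 lower members (14.1% and 17.2% of all genes), and without overlap between the groups 1 was higher and 11 lower (15.8% and 21.9%). Trim16 differed most, at 12.8, 13.0 and 11.8 CPM in ACAT1 KO against 35.4, 34.1 and 32.8 CPM in WT libraries (log2 fold change -1.43, SE 0.0651, adjusted p = 0.000137, edgeR). Trim33, the TIF1-gamma cofactor of SMAD signalling and chromatin, was at 59.2, 59.6 and 58.4 CPM against 82.5, 76.7 and 72.2 CPM (log2 fold change -0.36, SE 0.0609, adjusted p = 0.00944, edgeR). Together with Trim44, at 146, 149 and 143 CPM against 109, 105 and 119.6 CPM (log2 fold change 0.41, SE 0.0629, adjusted p = 0.0071, edgeR), these were the calls that held in every fit that left out a library. In all 3 genes the KO and WT libraries did not overlap.

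Trim62, a ligase of the CARD9 adaptor, was at 2.91, 2.94 and 2.77 CPM in ACAT1 KO and 4.09, 3.96 and 3.98 CPM in WT libraries (log2 fold change -0.46, SE 0.0944, adjusted p = 0.0187, edgeR). Trim2, which ubiquitinates neurofilament light chain in neurons, was at 1.98, 1.70 and 1.80 against 2.74, 3.80 and 2.77 CPM (log2 fold change -0.74, SE 0.157, adjusted p = 0.0207, edgeR). It had a like difference without stimulation, 2.81, 2.66 and 2.86 against 4.14, 4.91 and 4.11 CPM, that missed the adjusted threshold (log2 fold change -0.65, SE 0.141, adjusted p = 0.0741, edgeR). The calls of Trim62 and Trim2 after LPS were each lost when any 1 KO library was left out. Trim47 was at 13.1, 14.9 and 11.2 CPM in ACAT1 KO and 15.4, 22.7 and 21.4 CPM in WT libraries (log2 fold change -0.58, SE 0.156, adjusted p = 0.0418, edgeR) and kept its call in 1 of 6 such fits. Without stimulation its log2 fold change was 0.50 (adjusted p = 0.264), in the opposite direction, and its interaction of -1.09 had an adjusted p of 0.186 (edgeR). The adjusted p of that interaction was 0.0114 with DESeq2 and 0.136 with the line block (edgeR). Trim47 shares 4.74% of its transcript with the adjacent Trim65 at 100 bases. Trim35 differed by -0.19 (SE 0.0527, adjusted p = 0.0485, edgeR), a call that held in none of the 6 fits and in 2 of 8 other settings.

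None of the 8 members of the chromosome 7 cluster and none of the 5 other antiviral members tested passed after LPS, at adjusted or unadjusted p under 0.05 (edgeR), nor did any of them at an adjusted p under 0.05 with DESeq2. The median difference of the cluster was 0.16, with 6 of 8 values positive. Trim30a differed by 0.15 (SE 0.133), Trim25 by 0.04 (SE 0.0607) and Trim21 by 0.10 (SE 0.0931), each between overlapping groups. Trim36 was the member furthest above zero, at 0.63 (SE 0.198, adjusted p = 0.0693, edgeR), and passed with DESeq2 (adjusted p = 0.00742) and with the replicate number as a block (0.02, edgeR).

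**Figure D3:**
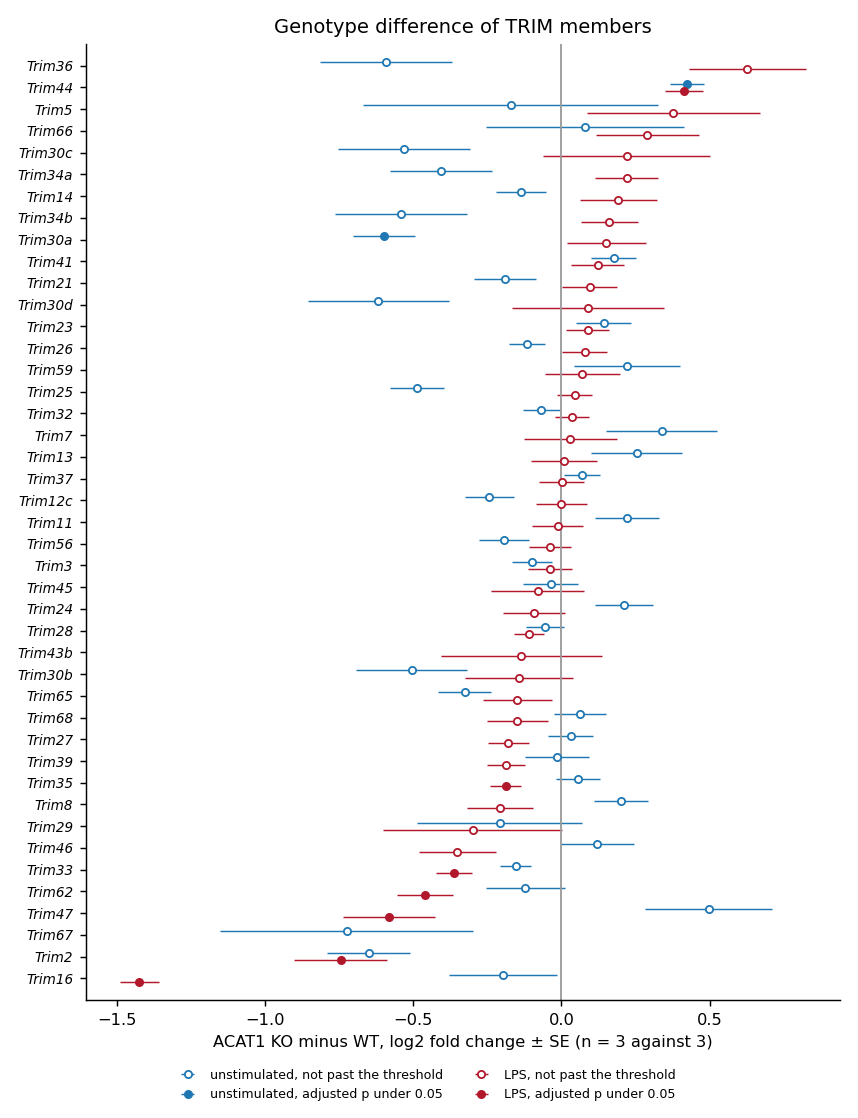
Difference between ACAT1 KO and WT cells for each member tested, as the log2 fold change ± SE without stimulation (blue) and after LPS (red), ordered by the value after LPS (Trim67 by the unstimulated one), with filled points past the adjusted threshold. Trim16 stands apart at -1.43 after LPS, Trim44 is near 0.42 in both states, and the blue points of the Trim30 and Trim34 genes lie left of zero while the red ones lie near it.

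**Figure D4:**
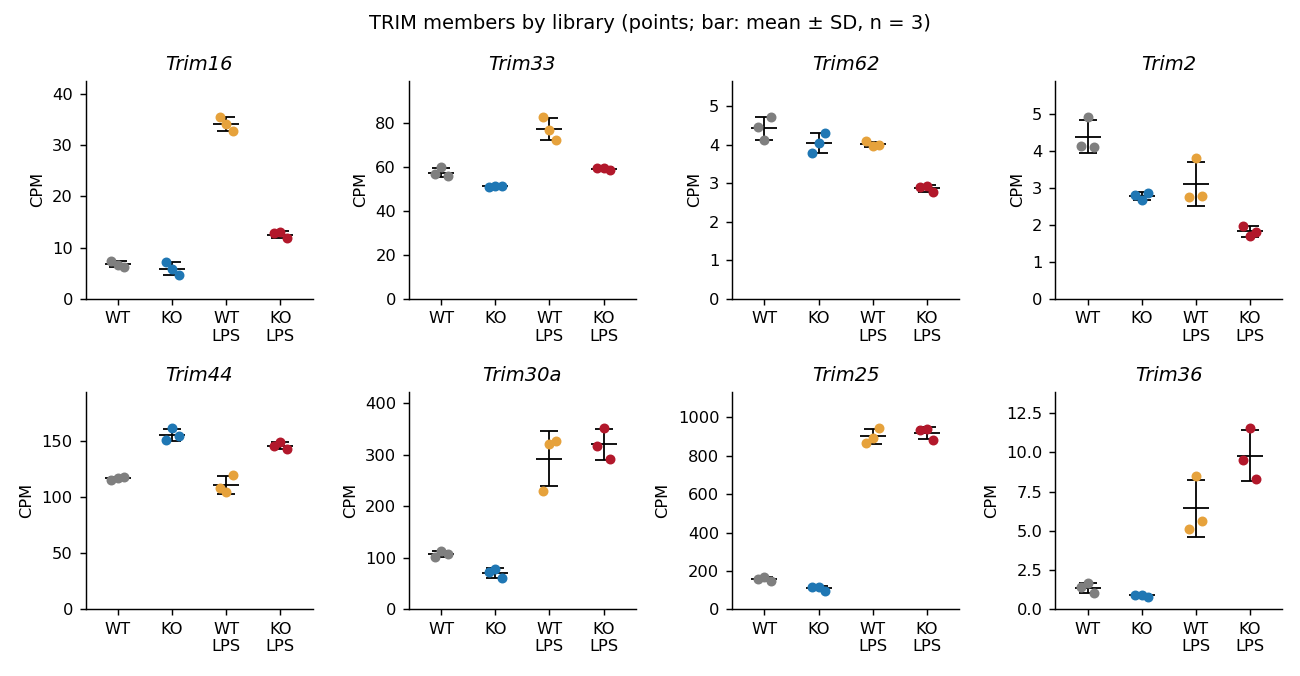
Level of 8 members in CPM on linear axes from zero, with 1 point per library and the mean ± SD of 3 libraries for each group. Trim16, Trim33, Trim62 and Trim2 are lower in ACAT1 KO cells after LPS, Trim44 is higher in ACAT1 KO cells in both states, and Trim30a and Trim25 are lower in ACAT1 KO cells without stimulation and overlap after LPS.

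Trim44 was the 1 member past the adjusted threshold between genotypes in both states, and its position was examined. Trim2 and Trim33 had lower values in ACAT1 KO cells in both states, with no overlap and an unadjusted p under 0.05, and passed the adjusted threshold after LPS only. Trim44 lies on chromosome 2 from 102300119 to 102407828 of GRCm38, on the minus strand. The 16 genes tested within 2 Mb on either side that are not members had a median log2 fold change of 0.35 without stimulation, 14 of 16 positive and 3 past the adjusted threshold, and the 18 tested after LPS had a median of 0.36, 16 positive and 14 past it. Trim44 itself, at 0.42 and 0.41, was thus within the range of its neighbors. Across chromosome 2 from 90 Mb onwards the median was 0.29 for 709 genes and 0.28 for 712 genes, and 9.45% and 36.5% of them were called higher, against 0.742% and 5.93% of all genes. A like shift was measured on chromosome 12, with medians of -0.26 and -0.28, where no member was tested. The part of these regional shifts in the result for Trim44 was not tested. Around Trim16 and Trim33 the medians after LPS were -0.08 for 44 genes and -0.11 for 40 genes, and around Trim35 -0.23 for 23 genes, beyond the -0.19 of Trim35 itself.

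**Figure D5:**
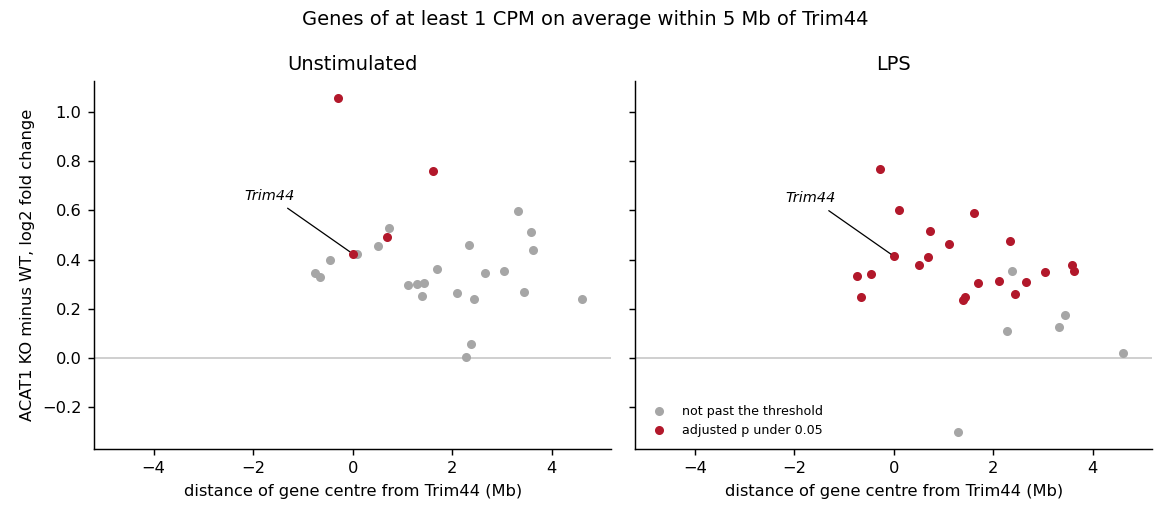
Difference between ACAT1 KO and WT cells (log2 fold change) for genes averaging at least 1 CPM within 5 Mb of Trim44, by distance from Trim44 in Mb, without stimulation and after LPS, with genes past the adjusted threshold in red. Trim44 sits among neighbors that are nearly all above zero, with a median of 0.35 within 2 Mb without stimulation.

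Members listed for 1 state only were all rare. Trim10, Trim43a, Trim43b, Trim43c and Trim69 were listed after LPS only and Trim17 without stimulation only, which, as both tables hold no gene under 4 counts in more than 1 of 6 libraries, does not show that they are silent in the other state. Trim43b had 32 to 95 counts per LPS library and did not differ between genotypes beyond its error (log2 fold change -0.14, SE 0.272). Trim10 had 4 to 18, Trim43a 7 to 18, Trim43c 6 to 18, Trim69 4 to 11 and Trim17 5 to 12 counts. Sequence shared with another gene at 100 bases made up 10.8% of Trim43b with Trim43c and 16.3% of Trim17 with Hist3h2a. Trim29, Trim41, Trim45, Trim66 and Trim67, with Trim28, Trim38, Trim44 and Trim50, showed no LPS response past the threshold.

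Of 4 TRIM genes that carry other symbols, 2 were tested in both states. Pml, the organizer of PML nuclear bodies (Trim19 in the family's numbering), was lower in unstimulated ACAT1 KO cells at 34.0, 36.9 and 35.6 CPM against 53.9, 59.7 and 52.8 CPM (log2 fold change -0.63, SE 0.0695, adjusted p = 0.0199, edgeR) and rose with LPS by 1.14 in WT and 1.79 in ACAT1 KO cells. Mid1, a microtubule-bound ligase, rose by 1.15 and 1.11 and was lower in ACAT1 KO cells after LPS (log2 fold change -0.59, SE 0.143, adjusted p = 0.0308, edgeR).

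Of 22 genes that act with TRIM proteins (E2 enzymes, sensors, adaptors and chromatin partners), 15 rose and 3 fell with LPS in WT (29.3% and 28% of all genes), and 14 rose and 5 fell in ACAT1 KO cells (29.5% and 31.2%). Those with the smallest p-values in WT were the kinase Ikbke, which rose by 2.62 in WT and 2.38 in ACAT1 KO cells on the log2 scale, the ubiquitin-like modifier Isg15 (4.99 and 6.21), the Trim30a target Tab2 (0.99 and 0.78), Tbk1 (1.13 and 1.05) and the ISG15 protease Usp18 (3.37 and 4.90). In ACAT1 KO cells Ddx58, which encodes RIG-I, the substrate of Trim25, was also among the first 5, at 2.65. Without stimulation 3 of the 22 were lower in ACAT1 KO cells, against 1.17% of all genes: Ddx58 (log2 fold change -0.83, SE 0.124, adjusted p = 0.039, edgeR), Usp18 (log2 fold change -1.76, adjusted p = 0.0215, edgeR) and the kinase Tbk1 (log2 fold change -0.35, adjusted p = 0.0442, edgeR). After LPS Tbk1 was lower (-0.41, adjusted p = 0.00628, edgeR) and Traf6, itself a RING ligase, higher (0.25, adjusted p = 0.0362, edgeR), where 9.12% and 5.93% of all genes were called lower and higher. Traf6 lies within 2 Mb of Trim44, among the neighbors with a median of 0.36, and the part of that regional shift in its result was not tested. The median of the 22 was 0.05 and -0.02 between genotypes in the 2 states, near that of all genes.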

How the data were processed

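RNA from J774A.1 cells was sequenced in 12 libraries of 4 groups, which were set from the genotype and treatment in the labels. Per the study's methods, reads from a directional library kit were trimmed with Trimmomatic 0.33, aligned to GRCm38 with HISAT2 and quantified with StringTie. The authors deposited unnormalized counts per gene in a separate table for each state, limited to 17544 and 17874 genes, none with fewer than 4 counts in more than 1 of 6 libraries; how whole numbers were obtained and whether strand was used are not given in the sources used here. The 12 columns of normalized values and the authors' own columns of fold changes and p-values were not used.

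TRIM members and gene lists were chosen with earlier results of these data known. edgeR 4.0.16 (R 4.3.3; filterByExpr, TMM, quasi-likelihood test, two-sided, Benjamini-Hochberg adjustment over all genes tested, threshold 0.05) was fitted to each table for the genotype comparisons and to all 12 libraries for the LPS responses and the interaction. Printed CPM use the TMM factors of the 12-library fit. Exon lengths, positions and shared 100-base stretches of transcripts are from GENCODE M21, and promoter windows from RefSeq (GRCm38.p6). The scripts were tested on simulated data.

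Named with values are all members of the chromosome 7 cluster and of the other antiviral group, other members past the threshold in any comparison, the 3 highest per length and those listed for 1 state. Across the fits, 42, 42 and 44 members were tested. The replicate numbers were taken to pair unstimulated and LPS libraries: deviations of same-numbered libraries from their group means correlated from 0.363 to 0.542 in WT and 0.533 to 0.65 in ACAT1 KO cells over 8608 genes, and the labels do not state this pairing. Alternatives were DESeq2 1.42.0, limma-voom (limma 3.58.1), relative log expression and upper-quartile scaling, no filter or at least 10 counts in every library, each library left out, replicate or line blocks, thinning to the smallest total, a term for the other-strand share, and 1 fit of 12 libraries. A fit without the 3 libraries of higher other-strand share was added after the data were seen. It leaves WT 3 as the only unstimulated WT library, so only its log2 fold changes are printed, and it is included in the totals of refits. At these totals, counting error limits precision only for members with few counts.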

Additional observations from a re-analysis of the deposited data

Results flagged for a closer look

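The LPS response of Trim16 differed between genotypes by the test of the difference itself. Trim16 rose by a log2 fold change of 2.34 (SE 0.136) in WT and of 1.10 (SE 0.132) in ACAT1 KO cells, an interaction of -1.24 (SE 0.186, adjusted p = 0.0367, edgeR over 16535 genes). It was higher after LPS in all 6 LPS libraries than in any unstimulated library of its genotype. With the line, inferred from the replicate number, as a block, the adjusted p was 0.00701 (edgeR). It was 1.8e-07 with DESeq2 and 0.0583 after thinning to the smallest total (edgeR). The call held in 4 of the 12 fits that left out a library. Same-state values of ACAT1 KO and WT cells overlapped before stimulation and did not after LPS.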

How the results depend on the processing

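None of the called members reversed direction under any alternative. The 30 called LPS responses in WT kept their call in 617 of 630 refits and the 35 in ACAT1 KO cells in 716 of 735, those that lost it at least once being Trim2, Trim7, Trim11, Trim14 and Trim35 in WT and Trim5, Trim11, Trim33 and Trim39 in ACAT1 KO cells. The 7 genotype calls after LPS held in 74 of 98 refits, the 2 calls without stimulation in 17 of 32 and the Trim16 interaction in 11 of 21. For each comparison the counts of calls moved as follows, and the cause was not tested. Without stimulation, 1 member was higher, against 0 with a replicate block and 0 to 1 when a library was left out. Lower members numbered 1 and became 4 with DESeq2, 2 with at least 10 counts in every library, 3 with a term for the other-strand share, 3 in the fit of 12 libraries, and 0 to 0 when a library was left out. After LPS, higher members went from 1 to 2 with DESeq2 and with a replicate block, and were 1 to 2 with a library left out, while lower ones, 6, were 2 to 5. The LPS response in WT had 10 lower members, 16 under upper-quartile scaling and 8 to 13 with a library left out. For the interaction, higher members went from 0 to 4 with DESeq2 and to 5 with the replicate block by line, and were 0 to 0 with a library left out. Lower ones went from 1 to 2 with DESeq2 and 0 after thinning, and were 0 to 1 with a library left out. Over all genes, unstimulated calls numbered 314 with edgeR, 1721 with DESeq2, 151 with the replicate block, 664 with the strand term, 475 with at least 10 counts in every library and 1353 in the fit of 12 libraries. Interaction calls over all genes numbered 31, 333 with DESeq2, 288 with the line block, 11 with limma-voom and 14 after thinning. In the genotype comparisons same-numbered libraries correlated from 0.0704 to 0.445 without stimulation and from -0.0949 to 0.307 after LPS. In each state the own number matched best in 2 of 3 cases. Whether same-numbered WT and KO libraries share more than the number was not tested. With that replicate block, Trim25 passed without stimulation (adjusted p = 0.0481, edgeR), Trim30a (0.058) and Trim44 (0.0534) did not, and after LPS Trim36 passed (0.02) and Trim35 did not (0.0532). Besides the values given, the line block changed 1 LPS call in ACAT1 KO cells, Trim38 (adjusted p = 0.0461, edgeR). Depth limits Trim5, Trim10, Trim17, Trim38, Trim43a, Trim43c, Trim50, Trim67 and Trim69, which have few counts per library.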
